A study of Bos taurus with 12 samples.

Results

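MicroRNA precursors are the hairpin transcripts from which mature microRNAs are cut. The 307 precursors described here are the let-7 genes and the microRNAs whose number has at most 3 digits, the families described early and shared widely among mammals. They were chosen by name alone. A transcript on the array was taken where the platform annotation gave it exactly 1 gene symbol, that symbol being MIRLET7 with any suffix or MIR with such a number, and symbols of host genes ending in HG were left out. This gave 307 transcripts with 307 different symbols, of 26773 transcripts in all. Another 14 transcripts with several symbols included a matching one and were not counted.

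A microRNA gene is transcribed as a long primary transcript, either on its own or as part of the gene that holds it. The enzyme DROSHA with its partner DGCR8 cuts out the hairpin, XPO5 carries it out of the nucleus, DICER1 trims it, and an Argonaute protein uses the mature strand to find messenger RNAs, which are then translated less or degraded. In the liver, mir-122 is the best known microRNA of hepatocytes, mir-33 and mir-27 are known for their part in lipid metabolism, and mir-29 for holding back collagen genes. The array measured total RNA with probes for the precursor region, so the values below are signals of the precursor or primary transcript and not of the mature microRNA.

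The livers came from Holstein cows in week 1 postpartum (day 7 ± 2). GSGME stands for a meal extract made of grape seed and grape marc. The 6 cows of the GSGME group had it as 1% of dry matter, starting 3 weeks ahead of the expected calving. The 6 control cows had 1% wheat bran in its place. According to the methods, each group held 5 multiparous cows and 1 primiparous cow, picked at random from a larger feeding trial. Each liver biopsy was hybridised to 1 Affymetrix Bovine Gene 1.0 ST array. In such bulk tissue, fewer cells of a type and less RNA per cell cannot be told apart.

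Array medians lay between 6.02 and 6.17 on the log2 scale, and correlations between arrays lay between 0.968 and 0.990. All 9 hepatocyte markers lay above the median transcript, the lowest with a mean of 8.89, and ALB, the albumin gene, had signals between 13.63 and 13.82 in all 12 livers. Markers of leukocytes (9 of 9), endothelium (6 of 6) and stellate cells or fibroblasts (7 of 7 measured) were above the median transcript too. Of 6 red cell markers 1 was, and of 4 bile duct markers 2 were. None of these 41 marker transcripts had a limma p under 0.05 between the groups.

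Most of the precursors gave a dim signal. Their median was 4.05 on the log2 scale, with quartiles of 3.12 and 5.52, against 6.07 for the median transcript, and 45 of the 307 (14.7%) lay above it. As a guide to the level of genes a liver does not use, the 717 olfactory receptor transcripts had a median of 3.67 and a 95th percentile of 5.62. Of the precursors, 180 lay above that median and 72 above that 95th percentile. The signal of a probe set depends on its own sequence as well as on the amount of RNA, so the order of signals below is not an order of amounts.

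The 10 precursors with the highest mean signals were MIR105A (8.14), MIR677 (8.05), MIR449D (7.88), MIR483 (7.82), MIR192 (7.62), MIR122 (7.60), MIR181A-2 (7.52), MIR99B (7.52), MIR324 (7.47) and MIR346 (7.46). MIR122 and MIR192 are well known in liver, and MIR483 lies inside the IGF2 gene in mammals. MIR105A, in contrast, lies in a gene for a nerve cell receptor subunit and is not known as a liver microRNA. Most neighbours in this order differed by less than the spread between cows, which was 0.25 for MIR105A, 0.15 for MIR677 and 0.72 for MIR122 (pooled within-group SD, n = 6 each). The 5 lowest were MIR302B (2.24), MIR124A-1 (2.28), MIR376A (2.30), MIR376B (2.31) and MIR367 (2.36). MIR302B and MIR367 belong to a cluster known from pluripotent stem cells, and mir-124 is known from nerve cells.

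MIR122 had a lowest signal of 6.96, a median of 7.39 and a highest of 8.29 in GSGME livers, and 6.52, 7.80 and 8.50 in control livers. The groups overlapped over nearly their whole range. Single differences are given with the unadjusted p of limma and with a two-sided exact permutation p over the 924 splits of the 12 cows, which can give no p below 0.0022. For MIR122 neither passed (difference -0.20 ± 0.35 SE on the log2 scale, limma p = 0.588, exact permutation p = 0.626). MIR192, known from liver and gut, had 7.08, 7.39 and 7.79 in GSGME livers and 7.03, 7.96 and 8.40 in control livers. Here all 6 GSGME livers lay below the control median, but none below the lowest control liver, and the difference of -0.44 ± 0.22 SE did not pass the test (limma p = 0.0668, exact permutation p = 0.117).

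**Figure D1:**
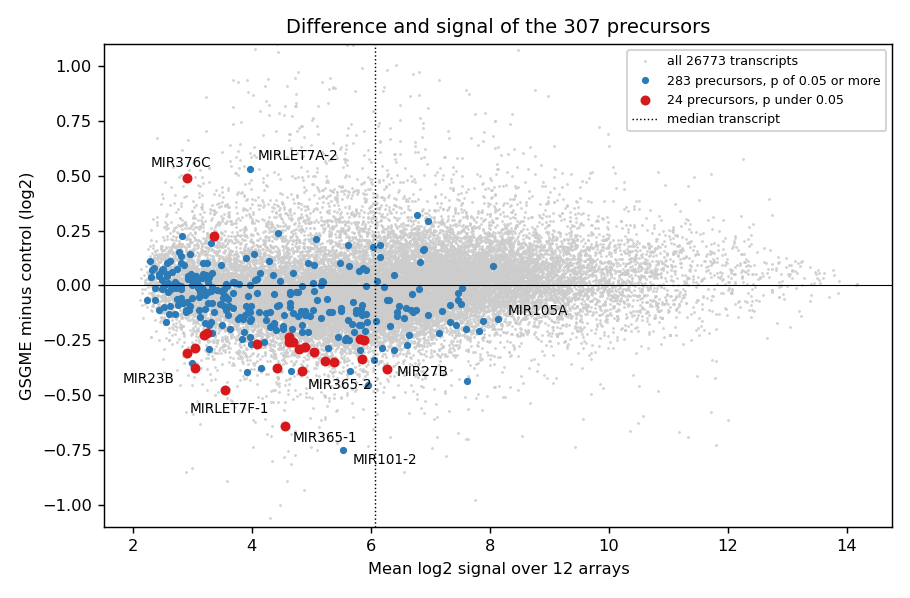
Each point is a transcript, with its mean log2 signal over 12 arrays on the x axis and the GSGME minus control difference in log2 signal on the y axis. The 307 precursors lie mostly left of the median transcript at 6.07 (dotted line) and more of them below 0 than above it. The y axis ends at 1.1 in both directions, which leaves out 28 of the 26773 transcripts and 0 precursors.

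The precursors were slightly lower in the GSGME livers as a group, with 24 of the 307 at an unadjusted p under 0.05 in limma and none after adjustment. Of 307, 213 (69.4%) had a lower mean in GSGME livers, where 54.3% of all transcripts and 62.2% of the transcripts below the median transcript did. Their median difference was -0.08 on the log2 scale, against -0.02 over all transcripts and -0.04 over those below the median transcript. Differences ran between -0.75 (MIR101-2) and 0.53 (MIRLET7A-2). Among the 45 brighter precursors 35 were lower, with a median difference of -0.11. With cyclic loess between arrays, 207 precursors were lower and their median difference was -0.06, against 0.00 over all transcripts.

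The same shift can be seen cow by cow. The median signal over the 307 precursors was 3.93, 3.98, 4.0, 4.04, 4.04 and 4.06 in the 6 GSGME livers and 3.98, 4.09, 4.13, 4.14, 4.19 and 4.25 in the 6 control livers. The GSGME livers were the lower ones except for control_1017, at 3.98. Livers are named by the cow numbers of the labels. The highest control liver, control_825, also had the highest array median (6.17) and the highest mean over the dim transcripts of the whole array (4.66). The part of that array-wide level in the shift of the precursors was not tested.

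In limma, 24 of the 307 precursors had an unadjusted p under 0.05, 22 of them lower and 2 higher in GSGME livers. The 22 are 7.17% of the precursors, where 3.17% of all transcripts and 4.27% of those below the median transcript were lower by this rule. The 2 are 0.651%, where 2.68% of all transcripts and 2.48% of those below the median transcript were higher. The study counted a transcript as changed at a fold beyond 1.3 together with an unadjusted p under 0.05, a negative fold being the negative inverse of the ratio. By this criterion 4 precursors were lower (1.3%, against 0.624% of all transcripts), namely MIR365-1, MIR365-2, MIR27B and MIRLET7F-1, and 1 was higher (0.326%, against 1.2%), MIR376C. With cyclic loess the criterion was met by 2 lower (MIR365-1 and MIR23B) and 1 higher (MIR376C).

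After Benjamini-Hochberg adjustment over all transcripts, 0 precursors passed 0.05 in limma, the lowest adjusted p being 0.830. The methods' t-test gave 23 precursors with an unadjusted p under 0.05, where 5.71% of all transcripts passed it. The exact test gave 22, with 20 lower and 2 higher, where 3.24% of all transcripts were lower and 2.39% higher by it, and 19 of the 22 are among the 24 of limma. The other 3 were MIR20A, MIR26A-2 and MIR744. In no precursor did the 6 GSGME values and the 6 control values separate without overlap, where 0.0859% of all transcripts separated with GSGME higher and 0.131% with GSGME lower. Of the 24 precursors, 4 lay above the 95th percentile of the olfactory receptors, namely MIR27B, MIR26B, MIR545 and MIRLET7I.

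**Figure D2:**
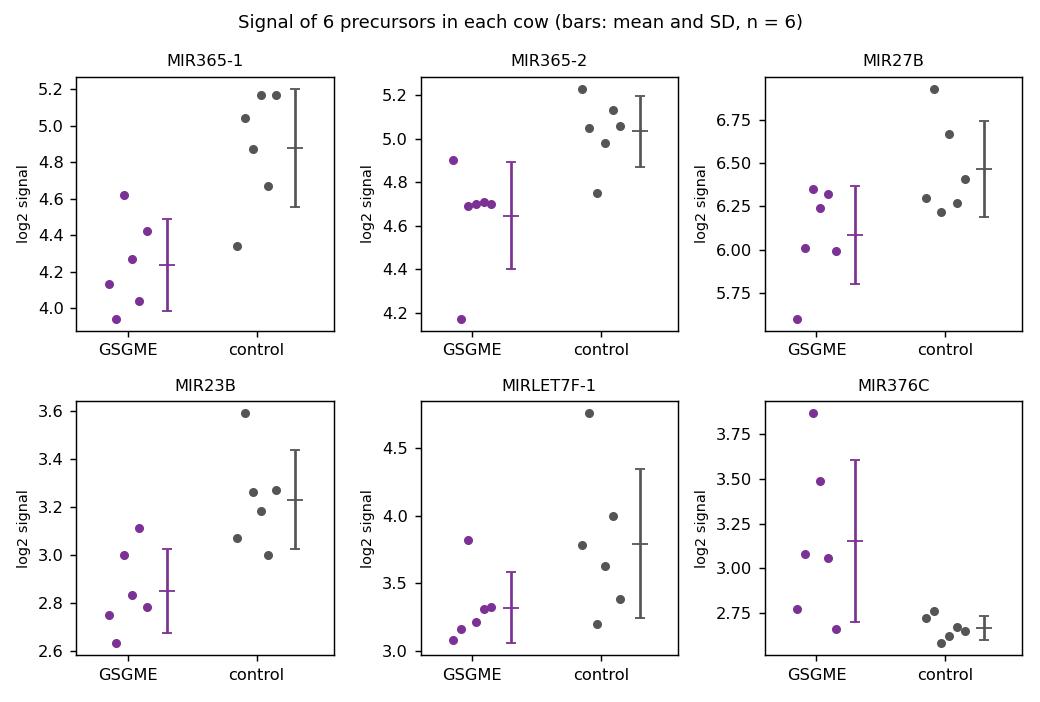
Log2 signal (y axis) of 6 precursors in each cow, with GSGME livers at the left and control livers at the right of each panel. Points are single cows, and the bars give the mean and SD of each group (n = 6). In all 6 panels at least 1 GSGME liver lies within the range of the control livers, and MIR376C is the only one with the higher GSGME mean.

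The largest difference among the precursors past the criterion was that of MIR365-1. mir-365 is known in human cells as a repressor of the cytokine IL-6, and in mouse fat it is made together with mir-193b. MIR365-1 had a lowest signal of 3.94, a median of 4.20 and a highest of 4.62 in GSGME livers, and 4.34, 4.96 and 5.17 in control livers. Of the 6 GSGME livers, 4 lay below every control liver, and only control_1017, at 4.34, came down into the GSGME range. The difference was -0.64 ± 0.15 SE on the log2 scale, a fold of -1.56 (limma p = 0.000951, exact permutation p = 0.00866, limma adjusted p = 0.830). It met the criterion in each of 12 fits that left out 1 cow.

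MIR365-2, a separate gene for the same mature microRNA, was lower as well, and RNA of either gene may bind the probes of the other. It had 4.17, 4.70 and 4.90 in GSGME livers and 4.75, 5.06 and 5.23 in control livers. All GSGME livers but GSGME_821 lay below the lowest control liver. The difference was -0.39 ± 0.12 SE, a fold of -1.31 (limma p = 0.00520, exact permutation p = 0.00433), and 9 of the 12 fits without 1 cow kept it past the criterion, those without GSGME_741, control_1017 and control_1031 giving differences of -0.29, -0.35 and -0.37. MIR193B, the close neighbour of MIR365-1, had 4.91 ± 0.28 in GSGME livers and 5.04 ± 0.31 in control livers (SD, n = 6 each), a difference of -0.14 that did not pass (limma p = 0.391, exact permutation p = 0.431). MIR193A differed by -0.09 (limma p = 0.479, exact permutation p = 0.496). mir-365 is a microRNA the study itself picked on these samples, so its direction here is not independent evidence.

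MIR27B and MIR23B stand next to each other with MIR24-1 inside AOPEP, a gene for an aminopeptidase. mir-27b is known in mouse and human liver as a regulator of lipid genes. MIR27B had 5.6, 6.13 and 6.35 in GSGME livers and 6.22, 6.36 and 6.93 in control livers. All GSGME livers lay below the control median, although 3 of the 6 were within the control range. The difference was -0.38 ± 0.15 SE, a fold of -1.30 (limma p = 0.0224, exact permutation p = 0.0411). It met the criterion in 7 of 12 fits without 1 cow. Without GSGME_821 and without control_819, the lowest and the highest liver, the difference was -0.28 and -0.29.

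MIR23B had 2.63, 2.81 and 3.11 in GSGME livers and 3.00, 3.22 and 3.59 in control livers, with 4 GSGME livers below every control liver. Its difference of -0.38 ± 0.11 SE had the second lowest p of all the precursors (limma p = 0.00408, exact permutation p = 0.0108) and a fold just short of the threshold of 1.3. MIR24-1 differed by -0.105 ± 0.12 SE (limma p = 0.400, exact permutation p = 0.422), and the gene around all of them, AOPEP, by -0.06 ± 0.14 SE (limma p = 0.667, exact permutation p = 0.723). In the sister cluster, MIR23A, MIR27A and MIR24-2 differed by 0.07, 0.03 and 0.01, with exact permutation p-values of 0.738, 0.833 and 0.890.

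MIRLET7F-1, one of several let-7 genes that hold cells in a differentiated state, had 3.08, 3.26 and 3.82 in GSGME livers and 3.20, 3.71 and 4.76 in control livers. The groups overlapped widely, with 2 GSGME livers below every control liver. Its difference was -0.48 ± 0.22 SE, a fold of -1.39 (limma p = 0.0476, exact permutation p = 0.0736). It met the criterion in only 3 of 12 fits without 1 cow, those without GSGME_1047, control_1150 or control_825, and without control_819 the difference was -0.28. MIRLET7F-2, the other gene for this let-7 form, differed by 0.10 (limma p = 0.234, exact permutation p = 0.169). The neighbours of MIRLET7F-1, MIRLET7A-1 and MIRLET7D, differed by -0.06 and 0.08.

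MIR376C was the precursor past the criterion that was higher with GSGME. It was dim, with a mean of 2.91 over the 12 livers, below the lower quartile of the olfactory receptors (3.14). It belongs to the large imprinted microRNA cluster between DLK1 and DIO3, which mammals transcribe from the maternal chromosome. Its signals were 2.66, 3.07 and 3.87 in GSGME livers and 2.58, 2.66 and 2.76 in control livers. The control livers lay close together (SD 0.07), and 5 of the 6 GSGME livers were above all of them, with a wide spread (SD 0.45). The difference was 0.49 ± 0.17 SE, a 1.40-fold higher signal (limma p = 0.0117, exact permutation p = 0.0130, limma adjusted p = 0.830). Without GSGME_1047, whose signal of 3.87 was the highest, MIR376C no longer met the criterion, with a difference of 0.35. This microRNA too was picked by the study on these samples.

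The gene table places 33 of the precursors in an unbroken row around MIR376C, each within 10000 bases of the next. MIR376C was the only 1 of the 33 with a limma p under 0.05. Of its closest relatives in the row, MIR376A differed by 0.04, MIR376B by 0.07 and MIR376D by -0.20. MIR495, its nearest neighbour on one side, differed by -0.08. A list of the imprinted cluster matched 37 precursors by name and not by position. Of these, 29 had a lower mean in GSGME livers, and the median difference was -0.09 (-0.085 before rounding). The list includes MIR544B-1 and MIR544B-2, which the gene table places inside CHD6 and THOC1, outside the row. It lacks MIR453, which lies in the row. Their signals lay between 2.30 and 6.67, and 2 of the 37 were above the median transcript.

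**Figure D3:**
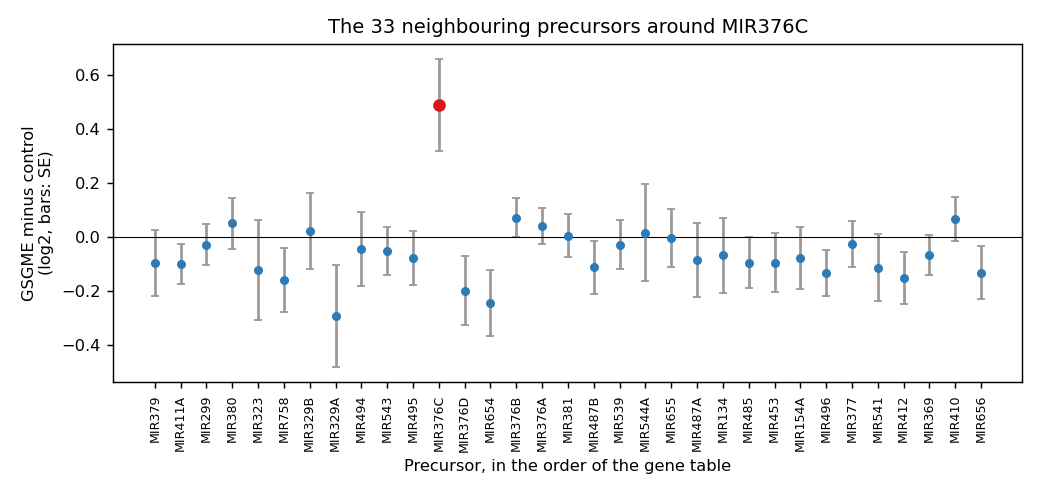
GSGME minus control difference in log2 signal (y axis; bars are the limma SE) of the 33 neighbouring precursors, in the order of the gene table (x axis). MIR376C (red) stands at 0.49, while the other 32 lie between -0.29 and 0.07.

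The other precursors with an unadjusted limma p under 0.05 differed by less than the threshold of 1.3-fold. Several of them are known for their part in metabolism. MIR378-1 lies inside PPARGC1B, the gene of the coactivator PGC-1beta, and is known in mice for opposing the metabolic actions of that coactivator. It had 4.42, 4.57 and 4.70 in GSGME livers and 4.70, 4.80 and 5.04 in control livers, so that the groups met at 4.70 without crossing. The difference was -0.26 ± 0.08 SE (limma p = 0.00561, exact permutation p = 0.00433). PPARGC1B itself averaged 5.37 ± 0.16 in GSGME livers and 5.59 ± 0.09 in control livers (SD, n = 6 each), a difference of -0.23 (limma p = 0.0210, exact permutation p = 0.0152).

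MIR26B, which lies in the phosphatase gene CTDSP1, had 5.49, 5.82 and 5.87 in GSGME livers and 5.85, 6.0 and 6.21 in control livers. Of the GSGME livers 3 lay below all control livers, and the difference was -0.25 ± 0.09 SE (limma p = 0.0176, exact permutation p = 0.00866). CTDSP1 differed by 0.06 (limma p = 0.495, exact permutation p = 0.418). The related MIR26A-1 and MIR26A-2 differed by -0.29 and -0.08 and did not pass in limma, with exact permutation p-values of 0.149 and 0.0303. MIR26A-2 had the narrowest spread of all 307, a pooled within-group SD of 0.05.

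MIR29B-1 had 2.59, 2.75 and 2.98 in GSGME livers and 2.72, 3.07 and 3.33 in control livers (difference -0.31 ± 0.12 SE, limma p = 0.0193, exact permutation p = 0.0368). The mir-29 family holds back collagen genes, and this precursor was among the dimmest here. Its neighbour MIR29A differed by -0.35 (limma p = 0.0586, exact permutation p = 0.121), the second gene for the same microRNA, MIR29B-2, by -0.26 (limma p = 0.355, exact permutation p = 0.422) and MIR29C by 0.145 (limma p = 0.50, exact permutation p = 0.558). MIR29D, a further member named in cattle, differed by -0.22 (limma p = 0.0443, exact permutation p = 0.0411).

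MIR545 had 5.55, 5.70 and 5.76 in GSGME livers and 5.51, 6.08 and 6.27 in control livers. Its GSGME values lay close together, and only 1 control liver fell below their highest value (difference -0.34 ± 0.11 SE, limma p = 0.0104, exact permutation p = 0.0216). MIR374A, the neighbour of MIR545, was dim at 2.53 and differed by 0.01 (limma p = 0.943, exact permutation p = 0.909). MIR504, a repressor of p53 in human cells, had 4.81, 5.07 and 5.26 in GSGME livers and 5.19, 5.27 and 5.98 in control livers (difference -0.35 ± 0.13 SE, limma p = 0.0195, exact permutation p = 0.0108).

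The precursors MIR200A and MIR200B, which with MIR429 keep epithelial cells in their state, differed by -0.29 and -0.35, both with a limma p under 0.05 (exact permutation p-values of 0.0476 and 0.0671), and MIR429 by -0.08 (limma p = 0.304, exact permutation p = 0.216). MIR125A, of the family named after the worm gene lin-4, differed by -0.28 (limma p = 0.0193, exact permutation p = 0.0325). MIR132, which the factor CREB switches on in nerve cells, differed by -0.27 (limma p = 0.0303, exact permutation p = 0.0303). The remaining ones that were lower were MIR30D, MIRLET7I, MIR615, MIR767, MIR32, MIR497 and MIR330, with differences between -0.38 and -0.23 and limma p-values between 0.0167 and 0.0491. MIR129-2, known from nerve cells, was the second precursor that was higher, at 3.47 ± 0.19 in GSGME livers and 3.24 ± 0.12 in control livers (SD, n = 6 each; difference 0.23, limma p = 0.0348, exact permutation p = 0.0260).

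**Figure D4:**
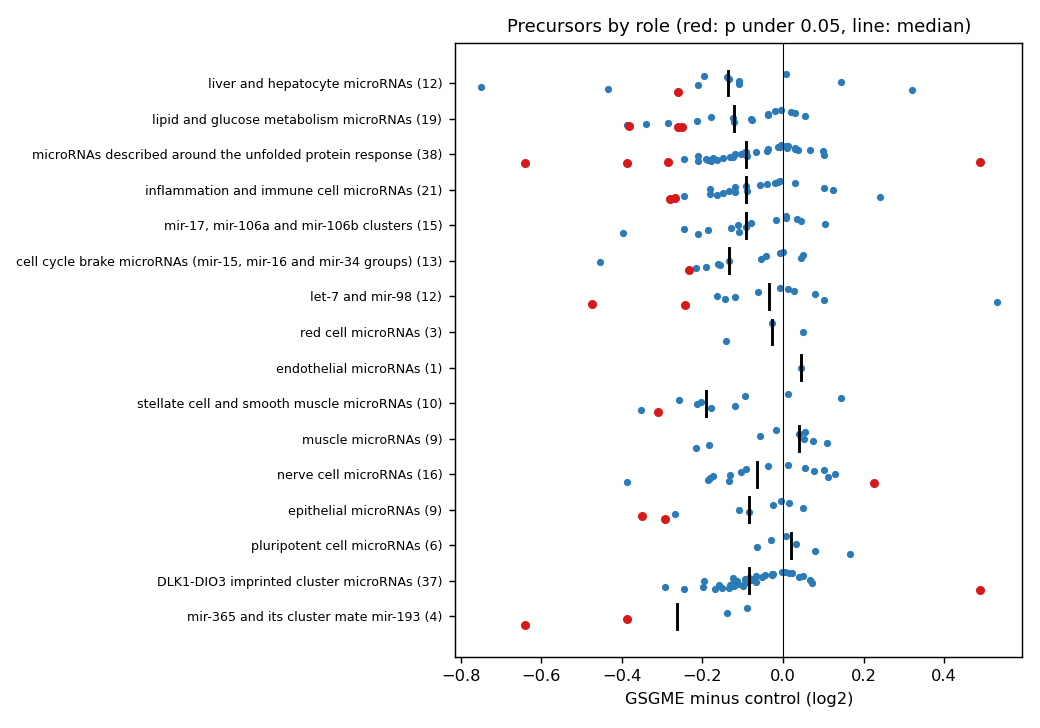
GSGME minus control difference in log2 signal (x axis) of the precursors in 16 lists by role (y axis, with the number of precursors in each). Points are precursors, red where the unadjusted limma p was under 0.05, and the line is the median of the list, which is below 0 for 13 of the 16 lists. The median over all 307 precursors was itself -0.08. Some precursors stand in more than 1 list, and mir-365 was picked by the study on these samples.

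Lists by role held between 0 and 4 precursors each at an unadjusted limma p under 0.05, where 7.17% of all the precursors and 3.17% of all transcripts were lower by this rule, and 0.651% and 2.68% higher. None of the lists was tested as a whole. Of 12 precursors of liver and hepatocyte microRNAs, 5 were above the median transcript, and 1, MIR378-1, was lower at an unadjusted p under 0.05. Their median difference was -0.14. MIR885 differed by 0.32 (limma p = 0.0561, exact permutation p = 0.0909) and MIR483 by -0.21 (limma p = 0.169, exact permutation p = 0.203). Of 19 precursors of lipid and glucose metabolism, 3 were lower, MIR378-1, MIR26B and MIR27B, and the median difference was -0.12. MIR33A, which lies in the sterol regulator gene SREBF2 and holds back cholesterol export in mice and humans, averaged 4.62 ± 0.21 in GSGME livers and 4.66 ± 0.20 in control livers (SD, n = 6 each; limma p = 0.747, exact permutation p = 0.758). SREBF2 itself differed by -0.07 (limma p = 0.512, exact permutation p = 0.513).

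Of 38 precursors whose microRNAs have been described around the unfolded protein response, 3 were lower (MIR365-1, MIR365-2 and MIR30D), 1 was higher (MIR376C), and the median difference was -0.09. This list holds mir-365 and mir-376c because the study singled them out on these samples, so its count is not independent. Without them the list keeps MIR30D alone. MIR204, MIR211, MIR708, MIR34A and MIR346, which come from cell studies of that response, differed by -0.07, -0.12, -0.21, -0.19 and -0.04, with exact permutation p-values of 0.476, 0.435, 0.377, 0.184 and 0.803.

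Of 21 precursors of inflammation and immune cells, MIR125A and MIR132 were lower and none was higher (median difference -0.09). MIR21, MIR155, MIR223 and MIR146A, microRNAs often followed in inflammation, differed by -0.12, -0.06, -0.02 and -0.12, with exact permutation p-values of 0.188, 0.545, 0.900 and 0.411. MIR142, a marker of blood cells, had a mean of 4.56 ± 0.26 in GSGME livers and 4.32 ± 0.26 in control livers (SD, n = 6 each; limma p = 0.107, exact permutation p = 0.149).

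Among microRNAs that drive or hold back cell division, the 15 precursors of the mir-17, mir-106a and mir-106b clusters had none with a limma p under 0.05 in either direction (median difference -0.09). MIR20A of this list, dim at 2.44, had 2.35, 2.39 and 2.41 in GSGME livers and 2.41, 2.45 and 2.63 in control livers. The groups met at 2.41 without crossing, and the difference of -0.11 had a limma p = 0.128 and an exact permutation p = 0.00433. Of the 13 precursors of the mir-15, mir-16 and mir-34 groups, which slow the cell cycle, MIR497 was lower (4.51 ± 0.18 in GSGME livers and 4.74 ± 0.17 in control livers, SD, n = 6 each, limma p = 0.0439, exact permutation p = 0.0519) and the median difference was -0.14. Of 12 let-7 and mir-98 precursors, MIRLET7I and MIRLET7F-1 were lower (median difference -0.04). MIRLET7I, the brighter of them, had 5.50, 5.72 and 5.83 in GSGME livers and 5.72, 5.87 and 6.33 in control livers.

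Lists of precursors from other cell types had medians between -0.19 and 0.05. The 3 red cell precursors, the 9 muscle precursors, the 6 of pluripotent cells and MIR126 of the endothelium had none with a limma p under 0.05. Their medians were -0.03, 0.04, 0.02 and 0.05 on the log2 scale. Of 10 stellate cell and smooth muscle precursors 1 was lower, MIR29B-1, with a median of -0.19. Of 9 epithelial precursors 2 were lower, MIR200A and MIR200B, with a median of -0.08. Of 16 nerve cell precursors 1 was higher, MIR129-2, with a median of -0.06.

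The genes that make and use microRNAs were close to even between the groups. Of 41 processing and Argonaute genes in the list, 36 were measured, 33 of them above the median transcript, and 0 met the criterion in either direction by limma and by the methods' t-test alike, against 1.2% higher and 0.624% lower over all transcripts. Their median difference was 0.01. DROSHA, DICER1, XPO5 and AGO2 differed by 0.03, -0.02, 0.05 and -0.03 on the log2 scale, with exact permutation p-values of 0.690, 0.937, 0.593 and 0.814. AGO1, one of the Argonaute proteins that carry mature microRNAs, was the only one with a limma p under 0.05, at 7.58 ± 0.13 in GSGME livers and 7.34 ± 0.18 in control livers (SD, n = 6 each; difference 0.25 ± 0.10 SE, limma p = 0.0256, exact permutation p = 0.0216). That is 2.78% of the 36, near the 2.68% of all transcripts that were higher by this rule.

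Pooled over all clusters, precursors that lie close together had a median correlation over the cows near that of any others, but the clusters were not alike. Clusters of 5 to 8 precursors had a median r between -0.17 and 0.03, and clusters of 3 between -0.05 and 0.56. The gene table gave 150 of the 307 a neighbour within 10000 bases, in 47 clusters. In 25 of these every precursor had a lower mean in GSGME livers and in 2 none had, where 69.4% of all 307 precursors were lower. Over the 12 cows, with each group centred on its mean, the median correlation between precursors was 0.05 within the largest cluster (528 pairs), 0.07 within the others (123 pairs) and 0.05 over all 46971 pairs of precursors, all of them read from the same 12 arrays. Single small clusters lay between -0.64 and 0.80. The highest were MIR181D with MIR181C (0.80) and MIR193B with MIR365-1 (0.72), and the lowest were MIR141 with MIR200C (-0.64), MIR374A with MIR545 (-0.62) and MIR30D with MIR30B (-0.56). The median r was 0.56 for MIR23B, MIR27B and MIR24-1 and 0.50 for MIR429, MIR200A and MIR200B.

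Of the precursors, 165 lie inside a protein-coding gene of the table, read without regard to strand. For 132 pairs of a precursor and a measured host the correlation over the 12 cows was tested by permuting cows within groups. In 7 pairs (5.30%) the permutation p was under 0.05, and 0 passed Benjamini-Hochberg adjustment over the pairs (lowest adjusted p = 0.680). By Spearman's rho 6 pairs had a permutation p under 0.05 and 0 passed. The median r was 0.06.

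MIR185 and its host TANGO2 went opposite ways (r = -0.77, permutation p = 0.00816, adjusted p = 0.680; rho = -0.77, permutation p = 0.00804, adjusted p = 0.744; r = -0.59 without the 2 cows farthest from the median of TANGO2). MIR875 and VPS13B went together (r = 0.77, permutation p = 0.0103, adjusted p = 0.680; rho = 0.75, permutation p = 0.0155; r = 0.69 without 2 cows). The next 3 pairs by p were MIR128-2 with ARPP21 (r = 0.72), MIR28 with LPP (r = 0.64) and MIR342 with EVL (r = 0.56), with permutation p-values of 0.0219, 0.0241 and 0.0453. Their rho was 0.53, 0.63 and 0.57, with permutation p-values of 0.0951, 0.0352 and 0.0679, and none passed adjustment. Without the 2 farthest cows r was 0.52, 0.60 and 0.76.

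The host gene SMC4 and its precursors had quite different group values. The study lists SMC4 among its most strongly up-regulated genes on these samples, so its direction here is not independent evidence. SMC4, the condensin subunit that packs chromosomes for mitosis, holds MIR15B and MIR16B. SMC4 had 5.97, 6.77 and 7.75 in GSGME livers and 5.36, 5.67 and 6.62 in control livers, a difference of 0.98 ± 0.27 SE (limma p = 0.00300, exact permutation p = 0.0130, limma adjusted p = 0.830). MIR15B and MIR16B differed by 0.04 and -0.04, with exact permutation p-values of 0.325 and 0.50, and were dim at 2.57 and 3.53.

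MCM7, a subunit of the DNA helicase of replication, holds MIR106B, MIR93 and MIR25. MCM7 averaged 7.58 ± 0.47 in GSGME livers and 7.25 ± 0.16 in control livers (SD, n = 6 each; difference 0.34, limma p = 0.0805, exact permutation p = 0.147). The precursors differed by -0.19, -0.21 and -0.25, and none passed (exact permutation p-values of 0.141, 0.0563 and 0.195). RCL1, an RNA processing factor that holds MIR101-2, averaged 9.62 ± 0.09 in GSGME livers and 9.93 ± 0.30 in control livers (SD, n = 6 each; difference -0.30, limma p = 0.0286, exact permutation p = 0.00649). MIR101-2 went the same way, with a difference of -0.75 that did not pass (exact permutation p = 0.212). Whether a host and its precursors differ between the groups by unequal amounts was not tested.

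Many microRNAs are made from more than 1 gene, and the probes of such near-identical precursors may catch each other's RNA. Among the 307, 27 names had 2 or more copies, 61 precursors in all. The median range of signal among the copies of a name was 1.02 on the log2 scale, between 0.05 (MIR133A) and 4.02 (MIR584, with 8 copies). In 15 of the 27 the copies differed in the same direction between the groups. MIR365 was the only name with more than 1 copy at a limma p under 0.05. The 3 let-7a genes differed by -0.06 (MIRLET7A-1), 0.53 (MIRLET7A-2) and -0.12 (MIRLET7A-3).

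A few precursors varied between cows far more than the rest. The pooled within-group SD had a median of 0.20 over the 307 precursors, the same as over all transcripts, but lay above 0.5 in 9 of them. These were MIR877 (1.04), MIR101-2 (0.98), MIR15A (0.84), MIR122 (0.72), MIR186 (0.61), MIR568 (0.54), MIR29B-2 (0.54), MIRLET7A-2 (0.52) and MIR30F (0.52). None of the 9 had a limma p under 0.05.

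**Figure D5:**
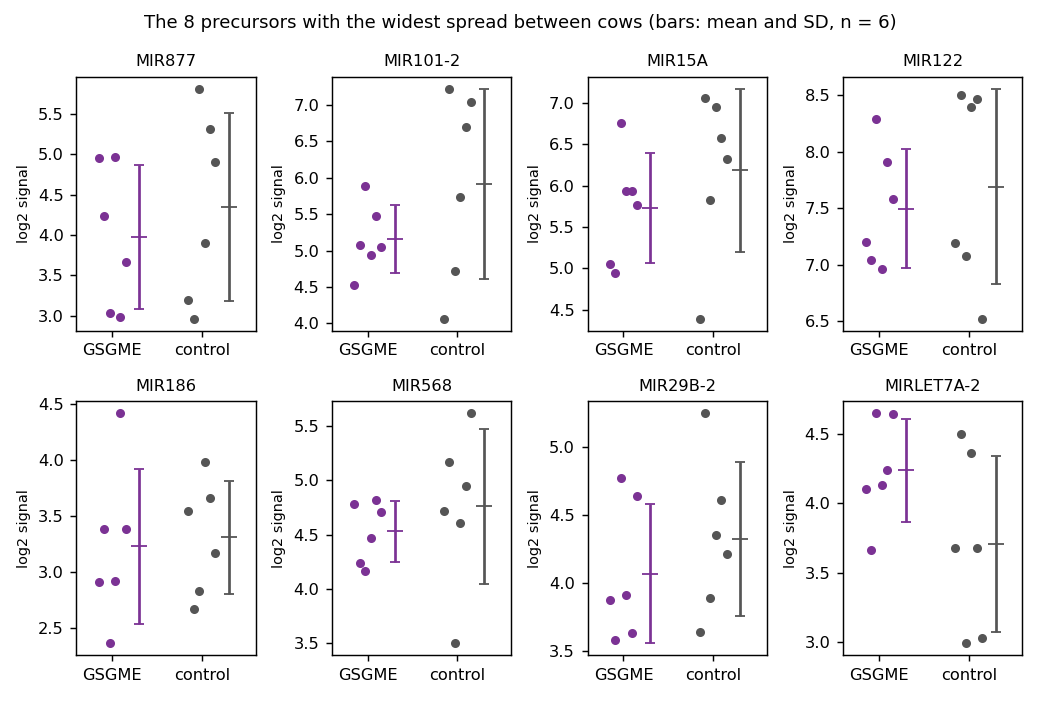
Log2 signal (y axis) of the 8 precursors with the widest spread between cows, with GSGME livers at the left and control livers at the right of each panel. Points are single cows, and the bars give the mean and SD of each group (n = 6). For MIR101-2 the control livers range between 4.06 and 7.22, on both sides of all GSGME livers.

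MIR101-2 had the lowest difference of all the precursors, -0.75 ± 0.48 SE, and did not pass the test (limma p = 0.140, exact permutation p = 0.212). Its signals were 4.53, 5.06 and 5.89 in GSGME livers and 4.06, 6.21 and 7.22 in control livers. Among the control livers, control_819, control_1150 and control_1031 stood at 7.22, 7.04 and 6.69, and control_825 and control_1017 at 4.72 and 4.06. The other gene for mir-101, MIR101-1, had an SD of 0.12 and differed by -0.11 (limma p = 0.201, exact permutation p = 0.139).

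MIRLET7A-2 had the highest difference, 0.53 ± 0.26 SE (limma p = 0.0617, exact permutation p = 0.119). Its signals were 3.66, 4.19 and 4.65 in GSGME livers and 2.99, 3.68 and 4.5 in control livers. MIR15A, which slows the cell cycle, had 4.94, 5.85 and 6.75 in GSGME livers and 4.39, 6.45 and 7.05 in control livers (difference -0.46 ± 0.41 SE, limma p = 0.290, exact permutation p = 0.361). MIR877, in an intron of ABCF1 in mammals, spread over 2.98 to 4.96 in GSGME livers and 2.96 to 5.81 in control livers (limma p = 0.472, exact permutation p = 0.539).

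Several of these wide precursors were high and low in the same cows. Over the 36 pairs of the 9, with each group centred on its mean, r over the 12 cows ran between -0.69 and 0.88 with a median of 0.24, and 14 pairs had r above 0.5. All came from the same 12 arrays and were chosen for their wide spread. MIR122 went with MIR30F (r = 0.88, rho = 0.88), MIRLET7A-2 (r = 0.81, rho = 0.85), MIR29B-2 (r = 0.65, rho = 0.64) and MIR15A (r = 0.64, rho = 0.70), and with MIR192, named here after its values were seen (r = 0.85, rho = 0.74). MIR877 ran against MIRLET7A-2 (r = -0.69, rho = -0.75), and MIR186 and MIR568 followed none of the others closely except MIR568 with MIR101-2 (r = 0.55, rho = 0.51).

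The 12 livers show this plainly for MIR122. The highest signals were those of control_819 (8.50), control_1031 (8.47), control_1041 (8.40) and GSGME_1047 (8.29). In the same livers MIR15A stood at 7.05, 6.57, 6.95 and 6.75, the 4 highest values of all 12 cows. MIR30F stood at 6.76, 6.49, 6.51 and 6.26 there, against 5.19 to 6.41 in the other livers. Of the hepatocyte markers, ALB stayed between 13.63 and 13.82 in all 12 livers, while others varied more. FABP1, the fatty acid binding protein of liver, lay between 12.31 and 12.69 in GSGME livers and between 10.78 and 12.92 in control livers, and APOA1, an apolipoprotein, between 8.33 and 9.62 in GSGME livers and between 8.07 and 9.50 in control livers. Their part in the spread of MIR122 was not tested.

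A further 221 microRNA precursors with a single symbol lie outside the set. Of these 67 (30.3%) were above the median transcript, against 45 of 307 (14.7%) in the set. At an unadjusted limma p under 0.05, 15 were lower (6.79%) and 2 were higher (0.905%), against 22 (7.17%) and 2 (0.651%) in the set and 3.17% and 2.68% over all transcripts. By the criterion 6 were lower (2.71%) and 0 higher, against 4 (1.3%) and 1 (0.326%) in the set and 0.624% and 1.2% over all transcripts. A lower mean in GSGME livers was found in 133 of the 221 (60.2%), against 69.4% in the set and 54.3% over all transcripts. The median difference of the 221 was -0.07, close to the -0.08 of the set. The difference between the sets was not tested.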

How the data were processed

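RNA of 12 liver biopsies, 6 of the GSGME group and 6 of the control group, was hybridised to 1 array each. The authors corrected the background, normalized and summarised the probes with the RMA algorithm in Affymetrix Expression Console. The deposited values are log2 signals with 2 decimals, with no filter stated. The sources used here give no version of that software. The number of arrays limits the precision.

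Groups came from the sample labels, and the groups share no cow. All 26773 transcripts were fitted with limma 3.58.1 (lmFit, eBayes, two-sided) in R 4.3.3 as GSGME minus control, with Benjamini-Hochberg adjustment over all of them. The criterion had the study's thresholds, an unadjusted p below 0.05 with a fold beyond 1.3, with the p of limma in place of the study's t-test. The limma and permutation steps were tested on simulated data. Cows are taken as the replicates.

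Symbols came from the platform annotation, and 307 of 307 gene IDs matched a RefSeq gene table of assembly ARS-UCD2.0, used for names, neighbours and hosts only. That table gives no strand, so hosts were taken without regard to it, although the plan had asked for the same strand. Host correlations used 100000 permutations of cows within groups, two-sided. Named were precursors with an unadjusted p under 0.05, the 10 highest and 5 lowest signals, the 8 widest spreads, copies of precursors past the criterion, up to 5 of each list by p or signal, and the 5 host pairs of lowest p. MIR30F, MIR20A, MIR744, some neighbours and relatives were named after their values were seen. The precursors, lists and tests were chosen with earlier results of these data known.

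Other settings tried were cyclic loess, array weights, a moderated fit with a trend and robust variances, the t-test of the methods, the brighter transcripts alone, transcripts with 1 symbol alone, other fold thresholds, and fits without each cow in turn. An exact permutation test of single differences was added after the data were seen. The remaining steps ran in Python 3.11.15 (matplotlib 3.10.9, numpy 2.4.6, pandas 2.3.3 and scipy 1.17.1). No sequence was used here.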

Additional observations from a re-analysis of the deposited data

Results flagged for a closer look

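Single livers far from the rest of their group were looked for in 46 precursors and in the median over the precursors. Chance alone marks about 1 in 20 of the 94 groups tested, and 7 were marked. In 3 of them the liver control_825 was the high one. MIR200B stood there at 6.07, against 5.36 to 5.6 in the other control livers, MIR504 at 5.98 against 5.19 to 5.48, and MIR615 at 5.70 against 4.89 to 5.18. The same liver had the highest median over the precursors and the highest array median, and the part of this in the differences of these precursors was not tested. MIR376A in control_819 stood at 2.41, against 2.22 to 2.28 in the other control livers. Among GSGME livers, MIR365-2 was lowest in GSGME_741 at 4.17, against 4.69 to 4.90 in the others. MIRLET7F-1 was highest in GSGME_1047 at 3.82, against 3.08 to 3.32. MIR200A was highest in GSGME_1001 at 5.13, against 4.46 to 4.70.

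Outside the 307, several array transcripts carry 7 symbols each, those of RTL1, PEG11AS, MIR136, MIR433, MIR431, MIR432 and MIR127 in the imprinted region, and none can be given to 1 precursor. Their differences between GSGME and control livers were -0.30, -0.175, -0.13, -0.08, -0.08, -0.05 and 0.01 on the log2 scale. The first 2 of these had an unadjusted limma p under 0.05 (limma adjusted p = 0.830 for both). Over all transcripts 3.17% were lower by this rule.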

How the results depend on the processing

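The count of precursors past the criterion moved with the choices made. In any fit run 0 of 24 named differences changed direction. Those 24 were chosen for a limma p under 0.05 on the same arrays, so such fits could hardly turn their direction. The 4 lower and 1 higher became 0 higher and 1 lower (MIR27B) among transcripts above the median transcript, where 1 precursor had a p under 0.05. They became 2 lower with cyclic loess, 7 lower with array weights, 22 lower and 2 higher with no fold threshold, 15 lower at 1.2-fold, and 1 lower and 0 higher at 1.5-fold. Leaving out 1 cow gave 1 to 11 lower, 0 to 3 higher, 16 to 34 with a p under 0.05 and 0 to 3 without overlap. The 11 came without control_1017 and the 1 without GSGME_741. No share of all transcripts in the same fit is given for array weights or for the fits without control_825, GSGME_741 or control_1017. The same holds for the ranges of counts higher, with a p under 0.05 and without overlap. Groups separate more easily with 1 cow fewer. Without control_825 there were 7 lower and 1 higher, and 18 had a p under 0.05. The exact test was chosen after seeing the data. Over all transcripts, the 322 higher and 167 lower became 718 and 849 with no fold threshold, 546 and 489 at 1.2-fold, 140 and 39 at 1.5-fold, 142 and 61 above the median transcript, 202 and 71 with a single symbol, and 375 and 112 with cyclic loess. The methods' t-test gave 109 lower, and leaving out 1 cow gave 139 to 289. With no fold threshold 1 processing gene of 36 was higher, AGO1 (2.78%, against 2.68% of all transcripts). Of the single differences, 80 fits without 1 cow lost p under 0.05 and 208 kept it, and 25 other fits lost it and 120 kept it. Among the fits without 1 cow, the fewest, 4, were lost without control_1041 and the most, 10, without GSGME_1143. Without control_825 the difference of MIR615 was -0.20 and that of MIR200B -0.25, neither past 0.05. Those of MIR330, MIRLET7F-1, MIR200B, MIR200A, MIR32, MIR497, MIR27B, MIR132, MIR129-2 and MIR767 did so in at least 1 of the other fits, among them the exact test for MIRLET7F-1, MIR32, MIR330, MIR200B and MIR497, and the cause was not tested. No paired analysis was possible because the groups share no cow number. Of the 307 precursors, 72 had a signal above the 95th percentile of the olfactory receptors.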
